A study of Mus musculus with 44 samples.

Results

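The mitochondrial ribosomal protein genes are the nuclear genes whose symbols start with Mrpl or Mrps followed by a digit, and their expression was followed here through mouse germ cell development. The array carried 110 probes for 76 such genes, and 71 genes with 98 probes were detected (detection p under 0.01) on at least 2 of the 44 arrays, out of 10935 genes measured that way. The brightest probe stood for a gene with several probes, as was the case for 21 members. The remaining 5 genes, Mrpl19, Mrpl21, Mrpl32, Mrps14 and Mrps36, were not detected on any array, with lowest detection p-values between 0.0113 and 0.137. Of the 71 members, 26 belong to the large subunit and have a bacterial counterpart, 20 were added to the large subunit in mitochondria, 16 belong to the small subunit and have a bacterial counterpart, and 9 were added to the small subunit. Mrps18a was counted as a large-subunit addition and Mrps18b and Mrps18c as bacterial counterparts, although all are relatives of a single bacterial protein.

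The mitochondrial ribosome translates the few proteins that the mitochondrial genome encodes, all of them core subunits of the respiratory chain and the ATP synthase. Its RNAs come from mitochondrial DNA, whereas all of its proteins are encoded in the nucleus, made in the cytosol and imported. Fetal germ cells change course early in gonadal life: in the ovary they enter meiosis and become oocytes in primordial follicles, and in the testis they stop dividing until spermatogonia resume after birth.

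The cells were primordial germ cells (PGC), from which eggs and sperm derive, sorted by FACS, and RNA of each sample was hybridized to a MouseRef-8 version 2 beadchip. Female PGC had 2 arrays on each of the embryonic days E12.5, E13.5, E14.5, E15.5, E16.5, E17.5 and E18.5, and male PGC had 2 arrays on each of the same days. Male cells taken after birth keep the name PGC in the labels, with 2 arrays on each of days 8, 10, 12, 16, 18 and 20 post partum (dpp) and 1 on day 14. PGC of E11.5, whose sex is given as undefined, had 2 arrays, and a male embryonic stem cell (ESC) line of the OG2 strain, with the genotype +/+ Oct4-GFP, had 1. The labels name no strain for the PGC and no animals behind a sample, and the duplicates may be biological or technical, so p-values cover the spread between samples alone, which may be technical.

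Array brightness followed the stage. The upper quartile of probe intensity was 79.9 to 170.2 on the embryonic PGC arrays, 295.5 to 605.5 after birth and 323.6 in ESC, and 24.9 to 49.3% of probes were detected on the embryonic arrays. No pair of arrays was identical. The germ cell genes Dazl and Dppa3 were detected on all 44 arrays, Ddx4 on 41 and Pou5f1 on 42, whereas Mael was detected on 10 of 30 embryonic PGC arrays and on 0 of 13 postnatal arrays. Values below are log2 normalized intensities, and a difference of 1 is a 2-fold change.

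Members were detected almost throughout: 62 of 71 on all 44 arrays, and 62 to 71 of them on any single array. Each of the 71 differed among the 23 groups (adjusted p under 0.05 and a range of at least 2-fold between group means), as did 89.1% of all genes. The range of a gene's group means had a median of 1.97 over the members, against 2.53 over all genes, and the standard deviation within groups had a median of 0.18, against 0.30. Which range was wider depended on the processing. Medians were 1.45 over the members and 1.18 over all genes without background correction, and 3.95 and 3.07 under median scaling. Under cyclic loess both were 2.09, and with the authors' own log2 values they were 2.24 and 3.43. The median member of a group lay at percentile 82.5 to 88.7 of all genes by level, and the part of level was not tested. Single members moved further than the median one. Mrpl53, a large-subunit protein with no bacterial counterpart, had the widest range of the 71, 4.02, with a mean of 10.96 in E16.5 females and of 6.94 in E15.5 males. Mrps34, a mitochondrial addition that the small subunit needs for its stability, spanned 3.81 between E18.5 females at 10.67 and E15.5 males at 6.86. Mrps15 spanned 3.76 and Mrps2 3.70, but the spread of Mrps15 between arrays of a group was wide, with a standard deviation of 0.70. Mrps11, Mrpl14, Mrpl42 and Mrpl28 had the narrowest ranges, 1.12 to 1.18. The group with a member's lowest mean was most often E18.5 males (16 members) or E15.5 males (14 members), and the group with its highest mean was most often ESC (14 members) or E16.5 females (12 members). These counts were not taken over all genes, and ESC had 1 array. The E16.5 female arrays detected the fewest probes, 24.9 and 25.8%. Their standard deviation between replicates, 0.67 over all genes, was the widest of the groups with 2 arrays.

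**Figure D1:**
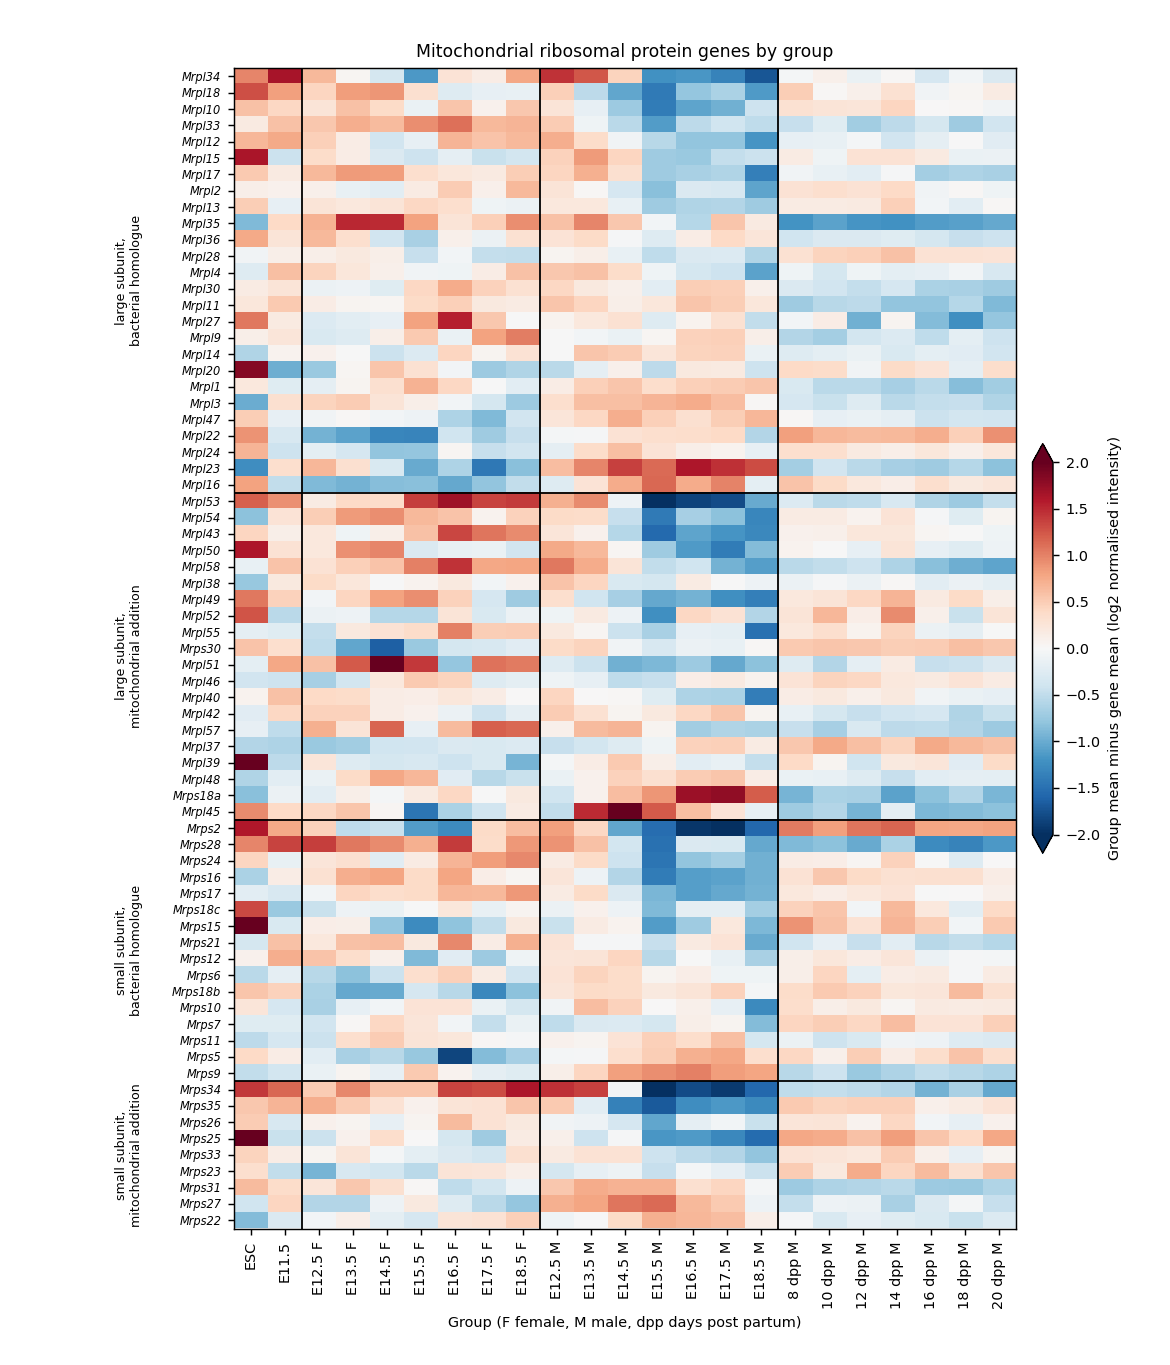
Group means of the 71 mitochondrial ribosomal protein genes (rows, ordered by subunit and origin) in the 23 groups (columns), each as the difference from the gene's mean over groups in log2 normalized intensity, with colours capped at 2 either way. Mrpl53 and Mrps34 are among the darkest blue rows in males from E15.5 to E18.5 and red in females of the same days, while Mrpl23 is red in those males and blue in those females.

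The change of male PGC at E14.5 and E15.5 from male PGC at E12.5 and E13.5 covers the days on which male germ cells stop dividing. Of the 71 members, 15 fell and 1 rose, where a gene counts as changed at an adjusted p under 0.05 and at least 2-fold. That is 21.1% and 1.4% of the members, against 10.4% and 12% of all genes. By adjusted p alone 52 members passed, against 49.5% of all genes. The count depended on the processing: 8 fell and 0 rose without background correction, and 24 fell and 0 rose under median scaling. The median difference was -0.37 over the members and 0.0046 over all genes. A negative difference was found for 49 members, a count given for the members only. The falls touched every class, with 4 of 26 and 5 of 20 in the large subunit and 4 of 16 and 2 of 9 in the small one, bacterial counterparts before mitochondrial additions.

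Mrps34 had 9.60 and 8.38 on the E14.5 arrays and 6.95 and 6.76 on the E15.5 arrays of males, against 10.58 and 10.43 at E12.5 and 10.51 and 10.32 at E13.5. Every later array was below every earlier one, and the fall was 5.81-fold (-2.54, SE 0.16, adjusted p = 2.54e-12, 4 arrays against 4). Mrpl53 had 9.70 and 8.63 at E14.5 and 7.27 and 6.61 at E15.5, against 10.07 and 9.89 at E12.5 and 10.31 and 10.10 at E13.5. It fell 4.12-fold (-2.04, SE 0.17, adjusted p = 1.54e-10), again without overlap. Mrps2, the counterpart of a bacterial small-subunit protein, had 5.85 and 5.48 at E14.5 and 5.18 and 5.19 at E15.5, against 7.44 and 7.61 at E12.5 and 7.19 and 7.04 at E13.5. Its fall of 3.72-fold (-1.90, SE 0.26, adjusted p = 9.76e-07) reached the detection limit, since 1 of the 4 later arrays detected it, against 4 of 4 earlier ones.

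Mrpl34, the counterpart of a small bacterial large-subunit protein, had 9.74 and 8.63 at E14.5 and 7.72 and 7.34 at E15.5, against 10.17 and 10.21 at E12.5 and 10.10 and 9.88 at E13.5. Mrps35, an addition to the small subunit, had 8.13 and 7.52 at E14.5 and 6.97 and 8.00 at E15.5, against 9.71 and 9.69 at E12.5 and 8.86 and 9.08 at E13.5. Both fell over 3-fold without overlap of arrays, by 1.73 (adjusted p = 1.27e-08) and 1.68 (adjusted p = 1.25e-08) on the log2 scale. Mrps28 fell by 1.67, Mrpl54 by 1.31, Mrpl43 by 1.23, Mrpl18 by 1.21, Mrps16 by 1.07 and Mrpl50 by 1.04, all without overlap of arrays. Mrpl45, which lies at the exit of the nascent chain tunnel and anchors the ribosome to the inner membrane, was the 1 member that rose. It had 7.93 and 7.83 at E14.5 and 7.43 and 6.74 at E15.5, against 6.21 and 4.55 at E12.5 and 7.31 and 7.42 at E13.5, so its arrays overlapped (1.11, SE 0.35, adjusted p = 0.00929).

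The arrays of E14.5 and E15.5 males differed in the size of the fall, and the replicates of E14.5 stood apart. Replicate 2 of E14.5 males was below replicate 1 for 66 of the 71 members, with a median difference of -0.51, and for all 15 members that fell, with a median of -0.72. This comparison of replicates was not made over all genes by direction. The standard deviation between these replicates was 0.42 over the members and 0.38 over all genes. Without the E15.5 arrays 5 members fell and 1 rose, and without the E14.5 arrays 21 fell and 2 rose. Without replicate 2 of E14.5 the number changed was 10, and without replicate 1 it was 17. Markers of other cells moved as well: the summed normalized level of 6 Sertoli cell markers was 679.9 to 1135.3 on the E14.5 and E15.5 arrays, with 4 of 6 detected, against 1172.8 to 2941.3 on the E12.5 and E13.5 arrays, with 4 or 5 detected. The sum of 4 endothelial markers was 173.4 to 270.0, against 325.2 to 911.8, with 2 to 4 and 1 or 2 detected. Mesenchymal markers went the other way with overlap, at 173.2 to 422.2, against 121.1 to 197.1. The germ cell sum was 16393.6 to 19036.6 at E14.5 and 8201.5 to 8744.9 at E15.5, against 16441.9 to 20504.4. Their part in the result was not tested, and in bulk RNA fewer cells of a type and less RNA per cell cannot be told apart.

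From E14.5 and E15.5 to the last fetal days few members passed the test in males. At E17.5 and E18.5 males had 0 members that rose and 2 that fell, while 11.5% of all genes rose and 6.48% fell. Without the fold threshold 32 members passed, against 46.2% of all genes. Mrpl45 fell by 1.56 (SE 0.35, adjusted p = 6e-04), and Mrpl34 fell by 1.14 (adjusted p = 1.36e-05) with overlap of arrays. Mrps34 stayed between 6.88 and 7.48 on the arrays of E16.5 to E18.5 males. The number changed was 1 to 7 when single arrays were left out, lowest without replicate 1 of E14.5 and highest without replicate 1 of E17.5. The Sertoli sum was 1579.3 to 3867.6 at E17.5 and E18.5, against 679.9 to 1135.3 at E14.5 and E15.5. Mesenchymal markers summed to 1016.2 to 1102.0, against 173.2 to 422.2, and granulosa markers to 409.3 to 1004.0, against 92.6 to 160.9. The endothelial sum was 413.8 to 782.3, against 173.4 to 270.0. The germ cell sum was 6150.6 to 10032.5, against 8201.5 to 19036.6. The part of these markers was not tested.

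Males at 8 and 10 dpp had 15 members higher and 4 lower than males at E17.5 and E18.5. Over all genes 18.4% were higher and 18.6% lower, beside 21.1% and 5.6% of the members. At any fold 59 members passed, against 65.9% of all genes. The median difference was 0.50 over the members and 0.02 over all genes. Cells after birth were measured on arrays with about the brightness of ESC, well above the embryonic arrays, and the scaling bears on the result. Under cyclic loess normalization 9 members were higher and 8 lower, and under median scaling, which moved the median of all genes by 1.10, 63 were higher and 0 lower.

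Mrps2 had 7.81 and 7.69 at 8 dpp and 7.59 and 7.45 at 10 dpp, against 4.66 and 4.54 at E17.5 and 5.43 and 4.83 at E18.5. The rise was 6.83-fold (2.77, SE 0.26, adjusted p = 8.66e-10), with detection on 4 of 4 postnatal and 1 of 4 fetal arrays. Mrps25, an addition to the small subunit, had 7.87 and 7.46 at 8 dpp and 7.67 and 7.59 at 10 dpp, against 5.66 and 5.53 at E17.5 and 5.0 and 5.70 at E18.5. It rose 4.52-fold (2.18, SE 0.26, adjusted p = 6.28e-08), and its other 2 probes rose by 1.34 and 1.43. Mrps35 had 9.92 and 9.46 at 8 dpp and 9.67 and 9.57 at 10 dpp, against 8.07 and 7.98 at E17.5 and 7.86 and 7.93 at E18.5. These 3 small-subunit genes had every postnatal array above every fetal one, and Mrps35 rose 3.24-fold (adjusted p = 5e-09).

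Mrpl34 had 8.68 and 8.74 at 8 dpp and 9.07 and 8.63 at 10 dpp, against 7.78 and 7.03 at E17.5 and 7.25 and 6.83 at E18.5, a rise of 2.94-fold (1.56, adjusted p = 3.93e-08). Mrpl49, an addition to the large subunit, rose by 1.54 (adjusted p = 2.03e-09), and its other 3 probes rose as well, by 1.45 to 1.69. Mrpl43 rose by 1.33, and Mrps34 rose by 1.25 to 8.45 to 8.70, which is below each of its arrays in E12.5 and E13.5 males. Mrpl53 missed the fold threshold at 1.99-fold (0.99, adjusted p = 1.06e-05).

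The adjusted p alone called 40 members higher and 19 lower, beside 33.7% and 32.1% of all genes, and 4 of the 19 fell at least 2-fold. Mrps18a, which is named for a small-subunit family but sits in the large subunit in structures of the ribosome, had 9.10 and 9.09 at 8 dpp and 9.50 and 9.28 at 10 dpp, against 11.88 and 11.71 at E17.5 and 11.23 and 11.25 at E18.5. It fell 4.84-fold (-2.28, SE 0.10, adjusted p = 9.2e-16). Mrpl23, whose bacterial counterpart lies at the tunnel exit, had 11.07 and 11.17 at 8 dpp and 11.56 and 11.27 at 10 dpp, against 13.27 and 13.23 at E17.5 and 13.10 and 13.09 at E18.5. No array of either group overlapped the other for these genes, and Mrpl23 fell 3.76-fold (-1.91, SE 0.11, adjusted p = 4.45e-14). Mrpl35 fell by 1.49 (adjusted p = 1.76e-06) and Mrps9 by 1.29 (adjusted p = 8.62e-12), of which Mrps9 turned to 0.67 under median scaling, below the shift of the median gene. The sum of 6 Sertoli markers was 1541.5 to 8286.4 at 8 and 10 dpp, with 4 or 5 detected, against 1579.3 to 3867.6 at E17.5 and E18.5, with 4 to 6 detected, and that of 4 endothelial markers was 104.7 to 125.2, with 1 detected, against 413.8 to 782.3, with 3 detected. Granulosa markers summed to 98.8 to 121.3, against 409.3 to 1004.0, and mesenchymal markers to 469.0 to 702.8, against 1016.2 to 1102.0. The erythroid sum was 303.4 to 528.8, against 2139.1 to 8179.3. Their part in the result was not tested.

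The 2 male steps have no array in common, so the same genes can be followed through both. Of the 15 members that fell by E14.5 and E15.5, 9 were among the 15 that were higher after birth, which is 60% of each list. Over all genes 537 did both, 47.3% of the 1136 that fell and 26.7% of the 2014 that rose. The 9 are Mrpl18, Mrpl34, Mrpl43, Mrpl50 and Mrpl54 of the large subunit and Mrps2, Mrps16, Mrps34 and Mrps35 of the small one. Mrpl18 and Mrpl43 each had a further probe that did not repeat both calls: for Mrpl18 it changed by -0.23 and 0.79, and for Mrpl43 by -1.49 and 0.53.

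**Figure D2:**
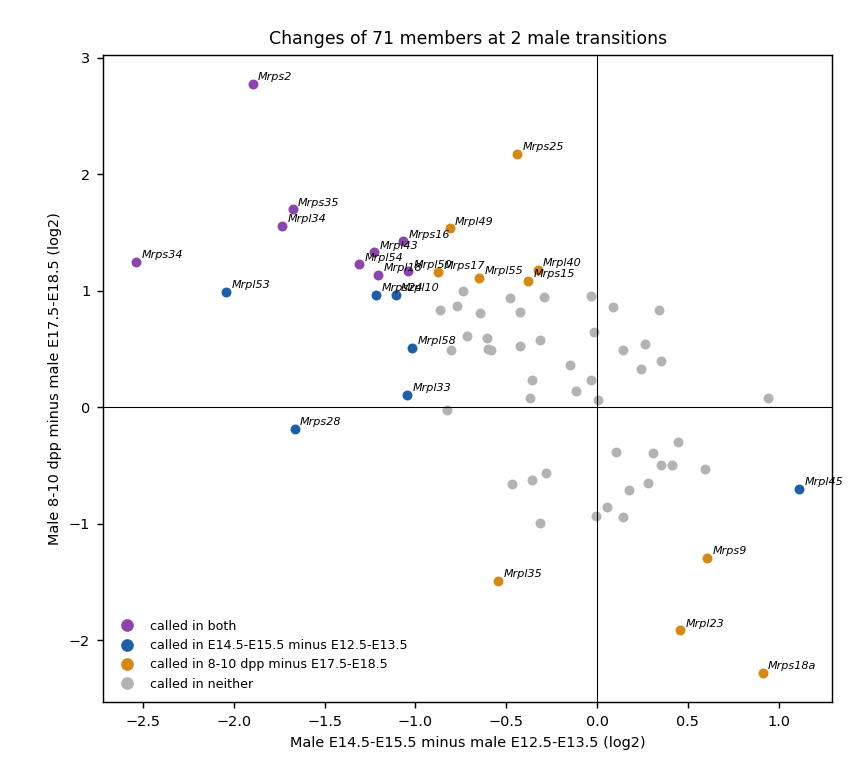
Each point is 1 of the 71 members, with its change in males at E14.5 and E15.5 from E12.5 and E13.5 (x axis, log2) and its change at 8 and 10 dpp from E17.5 and E18.5 (y axis, log2). The 9 members changed in both steps lie at the upper left, led by Mrps34 along x (-2.54) and by Mrps2 along y (2.77), and Mrps18a is lowest at -2.28.

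Genes of the mitochondrial ribosome are known targets of NRF1, GABP and YY1, transcription factors that act close to the start of many genes for mitochondrial proteins. Promoter windows of 300 bases, from 250 before the start of a gene to 50 after it, were found in RefSeq (GRCm38.p6) for 63 of the 71 members and searched on both strands for GCGCATGC (NRF1), CCGGAAG (GABP and other ETS factors) and AAGATGGC (YY1). CCGGAAG was found in 25 member windows (39.7%), in 16.4% of the windows of the genes measured and in 9.08% of all 27025 windows. AAGATGGC was found in 17.5% of member windows, against 4.28% of the genes measured and 2.86% of all. GCGCATGC was found in 11.1%, against 5.03% and 2.78%, and no matches of different motifs overlapped. A match describes the letters and is not evidence of binding. Of the 9 members that fell and later rose, 6 had a window, and 4 of these held CCGGAAG. Those 4 windows and that of Mrps2, which held none of the 3 motifs, are printed 5′ to 3′ on the strand of the gene because these genes moved together in males. Capitals mark CCGGAAG or its reverse complement CTTCCGG. The windows are chr17:12916042-12916341 (minus strand), chr8:71464676-71464975 (plus strand), chr19:45006393-45006692 (minus strand), chr14:20393441-20393740 (minus strand) and chr2:28467816-28468115 (plus strand).
Mrpl18: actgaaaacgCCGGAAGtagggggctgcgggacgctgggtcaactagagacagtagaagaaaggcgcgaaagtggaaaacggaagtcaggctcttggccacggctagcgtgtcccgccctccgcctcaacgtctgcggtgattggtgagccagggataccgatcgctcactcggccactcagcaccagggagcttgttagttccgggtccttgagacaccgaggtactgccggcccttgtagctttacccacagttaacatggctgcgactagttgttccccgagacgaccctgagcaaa
Mrpl34: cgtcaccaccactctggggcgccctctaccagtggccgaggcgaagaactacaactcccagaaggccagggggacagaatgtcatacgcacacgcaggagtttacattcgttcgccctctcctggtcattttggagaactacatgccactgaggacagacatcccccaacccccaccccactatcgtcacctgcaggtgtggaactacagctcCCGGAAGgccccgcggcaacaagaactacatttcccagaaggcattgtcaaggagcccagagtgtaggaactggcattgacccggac
Mrpl43: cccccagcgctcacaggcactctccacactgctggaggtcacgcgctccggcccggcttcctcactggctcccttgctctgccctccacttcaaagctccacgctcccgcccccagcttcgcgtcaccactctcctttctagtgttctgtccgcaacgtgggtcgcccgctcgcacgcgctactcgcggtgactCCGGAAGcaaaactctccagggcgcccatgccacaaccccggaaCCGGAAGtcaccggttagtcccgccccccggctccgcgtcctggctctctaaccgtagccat
Mrps16: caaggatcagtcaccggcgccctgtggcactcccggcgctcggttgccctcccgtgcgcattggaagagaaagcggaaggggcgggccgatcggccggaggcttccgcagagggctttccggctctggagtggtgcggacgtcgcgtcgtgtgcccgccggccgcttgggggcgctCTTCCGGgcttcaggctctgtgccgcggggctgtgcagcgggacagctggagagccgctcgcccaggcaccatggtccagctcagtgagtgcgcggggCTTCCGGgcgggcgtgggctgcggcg
Mrps2: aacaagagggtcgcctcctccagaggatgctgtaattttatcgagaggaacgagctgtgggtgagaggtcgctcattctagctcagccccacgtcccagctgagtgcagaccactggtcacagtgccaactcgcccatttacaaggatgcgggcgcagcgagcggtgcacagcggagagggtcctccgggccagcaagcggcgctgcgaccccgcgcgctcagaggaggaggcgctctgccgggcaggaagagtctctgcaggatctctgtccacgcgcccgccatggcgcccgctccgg
Mrpl43 and Mrps16 have 2 matches each, and Mrpl18 and Mrpl34 have 1. Across all 63 windows, at the male fall 7 of 25 members with CCGGAAG fell and 0 rose, with a median of -0.37, and of 38 without it 4 fell and 1 rose, with a median of -0.30. After birth 4 of 25 with it rose and 1 fell, with a median of 0.51, and 8 of 38 without it rose and 3 fell, with a median of 0.38. In females at E17.5 and E18.5, 9 of 25 with it were higher and 2 lower than in males, with a median of 0.50, and 8 of 38 without it were higher and 5 lower, with a median of -0.04. The difference between members with and without the motif was not tested.

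The sexes were compared in PGC of the same days. In females at E12.5 and E13.5, 1 member was higher and 5 were lower than in males, against 7.06% and 5.67% of all genes. By adjusted p alone 27 members differed, against 35.3% of all genes. Mrps27, a small-subunit protein with pentatricopeptide repeats, was lower in females by 1.33 (SE 0.14, adjusted p = 2.04e-08). Mrps30 was lower by 1.18, Mrps18b by 1.15, Mrps6 by 1.05 and Mrpl34 by 1.01, each without overlap of arrays. Mrpl51, an addition to the large subunit, was higher in females, with 5.89 and 6.40 at E12.5 and 6.61 and 6.98 at E13.5, against 5.01 and 5.59 at E12.5 and 5.21 and 5.06 at E13.5 in males. Detection failed on all 4 male arrays, so the difference is at least 1.70-fold (adjusted p = 9.42e-06), taken against the lowest signal of any detected probe on each array. The other 2 probes of Mrpl51 did not pass, at -0.13 and 0.38. No member was called higher in females under cyclic loess (0 higher, 5 lower) or median scaling (0 higher, 6 lower).

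In females at E14.5 and E15.5, 12 members were higher and 7 lower than in males, against 16.9% and 17.9% of all genes. Without the fold threshold 50 differed, against 60.2%. The male arrays are those of the male fall, so the values are another view of the same arrays. Mrpl51 had 7.49 and 7.69 at E14.5 and 7.15 and 6.81 at E15.5 in females, against 4.46 and 4.73 at E14.5 and 4.98 and 4.35 at E15.5 in males. No male array detected it, and the difference is at least 3.74-fold (adjusted p = 5.66e-12), while its other 2 probes gave 0.14 and 0.96 without passing. Mrpl18 had 9.33 and 9.38 at E14.5 and 8.61 and 8.97 at E15.5 in females, against 7.67 and 7.19 at E14.5 and 6.97 and 7.15 at E15.5 in males. It was 3.55-fold higher (1.83, SE 0.14, adjusted p = 2.07e-11), whereas its other probe gave 0.30 without passing. Mrps28 was higher by 1.75, Mrpl54 by 1.73 and Mrpl49 by 1.71, all without overlap.

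Mrpl45 was lower in females on the same days, with 5.66 and 6.15 at E14.5 and 4.43 and 4.39 at E15.5, against 7.93 and 7.83 at E14.5 and 7.43 and 6.74 at E15.5 in males. Its difference was 5.02-fold (-2.33, SE 0.35, adjusted p = 2.02e-06), with detection on 2 of 4 female and 4 of 4 male arrays. Mrpl23 had 11.42 and 11.57 at E14.5 and 10.56 and 11.01 at E15.5 in females, against 13.40 and 12.94 at E14.5 and 12.97 and 12.88 at E15.5 in males. It was 3.75-fold lower (adjusted p = 3.74e-14). Mrpl16 was lower by 1.80, Mrpl22 by 1.62 and Mrpl24 by 1.22, which like Mrpl23 are large-subunit proteins with bacterial counterparts.

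By E17.5 and E18.5 the female arrays had 22 members higher and 7 lower than the male arrays, which is 31% and 9.9% of the members, against 20% and 22.5% of all genes. At any fold 52 differed, against 68.7%. The median difference was 0.34 over the members and -0.02 over all genes. Mrps34 had 10.37 and 10.33 at E17.5 and 10.73 and 10.61 at E18.5 in females, against 7.38 and 6.88 at E17.5 and 7.47 and 7.48 at E18.5 in males. At 9.21-fold (SE 0.16 on the log2 scale, adjusted p = 5.83e-15) it had the widest difference of any member in this comparison. Mrpl53 had 10.64 and 10.60 at E17.5 and 10.68 and 10.65 at E18.5 in females, against 7.61 and 7.35 at E17.5 and 8.39 and 8.13 at E18.5 in males, a difference of 6.83-fold (2.77, adjusted p = 1.18e-13). Mrpl43 had 11.08 and 11.24 at E17.5 and 11.04 and 11.01 at E18.5 in females, against 8.96 and 8.87 at E17.5 and 8.66 and 8.93 at E18.5 in males. That was 4.72-fold (2.24, adjusted p = 1.94e-14), and the second probe of Mrpl43 gave 2.51.

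Mrps2 was 5.09-fold higher (2.35, adjusted p = 1.23e-08) and Mrpl34 3.96-fold higher (1.98, adjusted p = 3.91e-10). The other 17 higher members lay between 1.06 and 1.97. Mrpl23 was the farthest the other way in this comparison, with 10.28 and 10.45 at E17.5 and 10.96 and 10.95 at E18.5 in females, against 13.27 and 13.23 at E17.5 and 13.10 and 13.09 at E18.5 in males (-2.52, SE 0.11, 5.72-fold, adjusted p = 1.27e-16). Mrps18a was lower in females by 1.40, Mrps5 by 1.33, Mrps18b by 1.26 and Mrpl47 by 1.21, and the second probes of Mrps5 and Mrps18b were lower as well, by 1.06 and 1.24, while that of Mrpl47 did not pass at -0.56. Without background correction 11 members were higher and 5 lower, and under median scaling 22 were higher and 3 lower.

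The female excess varied with the day. The median of the members' female minus male differences was -0.13 at E12.5, -0.18 at E13.5, 0.09 at E14.5, 0.37 at E15.5, 0.25 at E16.5, 0.03 at E17.5 and 0.56 at E18.5. By group means, 0 members at E12.5, 2 at E13.5 and 9 at E14.5 were at least 2-fold higher in females. The numbers were 22 at E15.5, 18 at E16.5, 16 at E17.5 and 25 at E18.5. At least 2-fold higher in males were 1, 7, 8, 7, 5, 10 and 5 members on the same days. These medians and counts by day were not taken over all genes. Without the E18.5 males the late comparison had 18 higher and 10 lower members and a median of 0.02. Sertoli markers moved with this comparison: their sum was 146.0 to 172.4 on the female arrays, with 0 of 6 detected, against 1579.3 to 3867.6 on the male arrays, with 4 to 6 detected. Mesenchymal markers summed to 133.2 to 177.5 in females, with 1 of 4 detected, against 1016.2 to 1102.0 in males, with 3 or 4 detected, and granulosa markers to 103.2 to 147.2, with at most 1 of 3 detected, against 409.3 to 1004.0, with 3 detected. At E14.5 and E15.5 the Sertoli sum was 335.7 to 618.1 in females, with 2 detected, against 679.9 to 1135.3 in males, with 4 detected. At E12.5 and E13.5 it was 835.4 to 1094.1 in females, with 1 detected, against 1172.8 to 2941.3 in males, with 4 or 5 detected. Granulosa markers went the other way on these earlier days. Their sum at E14.5 and E15.5 was 298.9 to 455.4 in females, against 92.6 to 160.9 in males. At E12.5 and E13.5 the granulosa sum was 424.8 to 497.1 in females, against 73.4 to 128.5 in males. The part of these markers in the results was not tested.

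**Figure D3:**
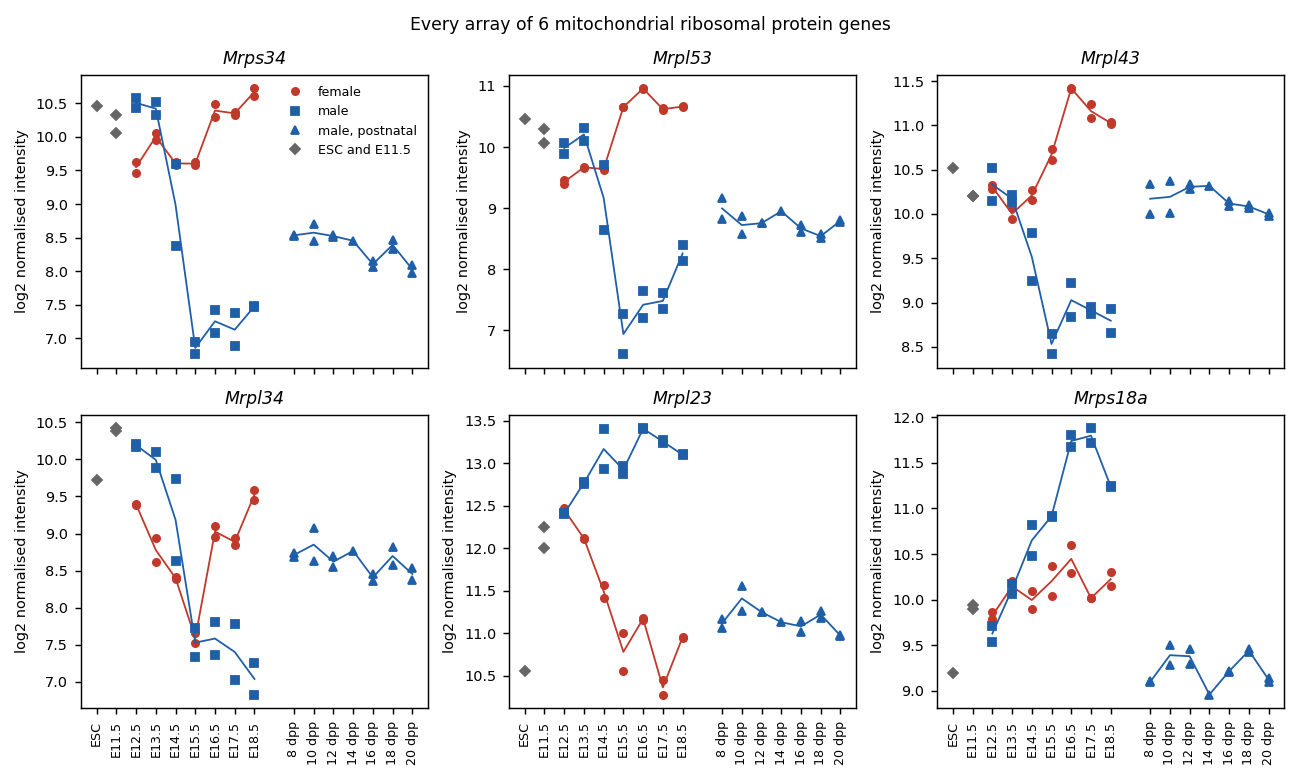
Log2 normalized intensity (y axis) of 6 members on each array by group (x axis), with females as circles, fetal males as squares, postnatal males as triangles, ESC and E11.5 as diamonds, and lines through the group means. Mrps34 and Mrpl53 lie between 6.61 and 8.39 in males from E15.5 to E18.5 and at 9.57 or above in females of those days, and Mrpl23 lies at 12.88 or above in the same males and between 10.28 and 11.18 in the same females.

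Whether the step into the middle days differed between the sexes was tested as an interaction, the change of females from E12.5 and E13.5 to E14.5 and E15.5 minus the change of males. The difference was positive for 16 members and negative for 2, where 12.9% and 14.8% of all genes passed (46 members and 44.1% of all genes by adjusted p alone), and its median was 0.42 over the members and -0.01 over all genes. Median scaling gave 8 positive and 3 negative. The largest values were those of Mrpl53 (2.64, SE 0.23, adjusted p = 1.87e-09) and Mrps34 (2.37, SE 0.23, adjusted p = 8.98e-09) on the positive side and of Mrpl45 (-2.31, SE 0.49, adjusted p = 0.000394) and Mrpl23 (-1.60, SE 0.15, adjusted p = 3.75e-09) on the negative one. For the step from those days to E17.5 and E18.5 the interaction was positive for 8 members and negative for 4, against 14.7% and 18.4% of all genes (40 members and 50.8% by adjusted p alone), and the split was 6 and 5 under cyclic loess and 18 and 0 under median scaling. Mrpl34 had the largest value (2.35, SE 0.26, adjusted p = 4.05e-08).

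Within females few members were called at 2-fold. At E14.5 and E15.5, when female PGC are in meiotic prophase, 0 members were higher and 4 lower than at E12.5 and E13.5, against 7.43% and 9.01% of all genes. By adjusted p alone 34 members passed, against 42% of all genes. Mrpl23 had 11.42 and 11.57 at E14.5 and 10.56 and 11.01 at E15.5, against 12.44 and 12.47 at E12.5 and 12.12 and 12.11 at E13.5, a fall of 2.21-fold (adjusted p = 2.44e-09). Mrpl34 fell by 1.09 (adjusted p = 2.2e-05) and Mrpl36 by 1.00 (adjusted p = 9.05e-08) without overlap of arrays, and Mrpl45 by 1.20 with overlap. The summed erythroid markers were 2698.7 to 8209.3 at E14.5 and E15.5, with 2 or 3 of 5 detected, against 316.9 to 1743.4 at E12.5 and E13.5, with 2 of 5 detected, and the Sertoli sum was 335.7 to 618.1, against 835.4 to 1094.1. Their part in the result was not tested. The split was 1 higher and 2 lower under cyclic loess and 1 higher and 6 lower with the authors' own log2 values.

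From those days to E17.5 and E18.5, 2 members rose and 3 fell in females, against 8.32% and 9.23% of all genes. Without the fold threshold 41 members passed, against 42.3%. Mrpl34 had 8.94 and 8.84 at E17.5 and 9.46 and 9.59 at E18.5, against 8.38 and 8.42 at E14.5 and 7.53 and 7.65 at E15.5, a rise of 1.21 (SE 0.18, adjusted p = 5.01e-06). Its fall in the earlier step was taken from the same E14.5 and E15.5 arrays, so the fall and the rise are not independent. Mrps2 rose by 1.29 (adjusted p = 0.000212). Mrpl49 fell by 1.39 (adjusted p = 3.24e-08), although its other 3 probes did not pass, Mrpl48 fell by 1.21 with all 3 of its probes, and Mrpl20 fell by 1.10. The split was 1 higher and 3 lower under cyclic loess, 5 and 2 under median scaling, and 6 and 3 with the authors' values. Without replicate 2 of E15.5 females 3 members passed. The Sertoli sum was 146.0 to 172.4 at E17.5 and E18.5, against 335.7 to 618.1 at E14.5 and E15.5, the granulosa sum 103.2 to 147.2, against 298.9 to 455.4, and the erythroid sum 983.6 to 2289.3, against 2698.7 to 8209.3. Whether these markers play a part was not tested.

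PGC at E11.5 and E12.5 were set against ESC, of which there was 1 array, assumed to vary like the other groups. In PGC 5 members were higher and 11 lower, against 13.2% and 14.2% of all genes. At any fold 38 members differed, against 40.2%. Mrpl20, the counterpart of a bacterial protein of early large-subunit assembly, had 8.11 and 8.85 at E11.5, 8.70 and 8.75 in E12.5 females and 8.83 and 9.02 in E12.5 males, against 11.30 in ESC. The difference was 6.04-fold (-2.59, SE 0.30, adjusted p = 1.41e-07). Mrps15 was lower by 2.71 (SE 0.71, adjusted p = 0.00311), Mrpl39 by 2.41 with detection on 1 of 6 PGC arrays, Mrps25 by 2.39 and Mrps18c by 1.76. Mrpl23 had 12.00 and 12.25 at E11.5, 12.44 and 12.47 in E12.5 females and 12.40 and 12.42 in E12.5 males, against 10.56 in ESC, a difference of 3.42-fold (1.77, SE 0.16, adjusted p = 2.91e-09). Mrpl35 was higher by 1.45, Mrpl3 by 1.35, Mrpl54 by 1.21 and Mrpl38 by 1.14. The second probe of Mrpl3 did not pass at 0.12, and the further probes of Mrps25 did not pass at -0.39 and -1.07. Median scaling, under which the median of all genes moved by -0.76, gave 0 higher and 61 lower members, and Mrpl3, Mrpl54 and Mrpl38 turned to -0.29, -0.49 and -0.56, still above that shift. The summed erythroid markers reached 66884.5 on an E11.5 array, and leaving out both E11.5 arrays gave 5 higher and 11 lower members.

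Through the first wave of spermatogenesis no member was called. At 12 and 14 dpp limma called 0 of 71 relative to 8 and 10 dpp, and 0.0274% of all genes (0 members and 0.0457% by adjusted p alone). An unadjusted p under 0.05 was found for 1 member, a count given for the members only. Mrpl27, Mrpl33 and Mrpl51 had the smallest p-values, at -0.50, -0.26 and 0.41, each with an adjusted p of 1. At 16, 18 and 20 dpp limma again called 0 of 71 relative to 12 and 14 dpp, and 0.914% of all genes. An unadjusted p under 0.05 was found for 14 members, again a count for the members only. By adjusted p alone 2 members passed, against 2.59% of all genes. The differences were negative for 54 members, which was likewise not set beside all genes. Their median over the members was -0.16, against -0.01 over all genes. Mrpl17, the counterpart of a bacterial large-subunit protein, had 10.67 and 10.80 at 16 dpp, 10.82 and 10.80 at 18 dpp and 10.81 and 10.73 at 20 dpp, against 11.22 and 11.19 at 12 dpp and 11.39 at 14 dpp. It was lower on every array but by less than 2-fold (-0.53, SE 0.11, adjusted p = 0.00448), as was Mrpl13 (-0.42, adjusted p = 0.0441) with overlap of arrays. Mrps33 missed the threshold at -0.36 (adjusted p = 0.0706).

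The 3 vertebrate relatives of a single bacterial protein, Mrps18a, Mrps18b and Mrps18c, took different courses. Mrps18a was highest in E17.5 males at 11.80 and lowest at 14 dpp at 8.96. Mrps18b was highest at 18 dpp at 10.94 and lowest in E17.5 females at 9.03, and it was below the male arrays in each sex comparison named above. Mrps18c was highest in ESC at 11.20 and lowest in E15.5 males at 8.99. The first of these is found in the large subunit and Mrps18b and Mrps18c in the small one.

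Genes that build or serve the mitochondrial ribosome were counted beside its proteins. At the male fall, 2 of 10 translation factors fell and 0 rose, of 19 assembly factors 3 fell and 2 rose, and of 10 mitochondrial aminoacyl-tRNA synthetases 3 fell and 1 rose. Over all genes 10.4% fell and 12% rose in this step. Mpv17l2, which associates with the large subunit during assembly, fell by 2.13 (adjusted p = 3.1e-12), Ddx28, a helicase of large-subunit assembly, by 2.09 (adjusted p = 6.33e-09) with detection on 1 of 4 later arrays, and the elongation factor Tsfm by 1.44. Chchd1 and Ptcd3, small-subunit proteins under other names, fell by 1.33 and 1.26. Nsun4, a methyltransferase acting on mitochondrial ribosomal RNA, rose by 1.67 (adjusted p = 6.92e-12) and Mettl17 by 1.07. After birth 3 of 10 translation factors, 3 of 19 assembly factors, 6 of 15 genes of mitochondrial DNA and transcription and 2 of 6 regulators of mitochondrial biogenesis rose, and 1, 2, 1 and 0 fell. The shares over all genes were 18.4% higher and 18.6% lower. Mtrf1l, a mitochondrial release factor, rose by 2.73, Mpv17l2 by 1.73 and Gabpa and Gabpb1, the subunits of GABP, by 2.04 and 1.69. Mettl17 fell by 1.98 and Noa1, a GTPase of mitochondrial translation, by 2.09. In late females Ddx28 was at least 11.9-fold higher than in males, which did not detect it on any of 4 arrays, and Mettl17 was lower by 2.70.

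Proteins of the cytosolic ribosome and subunits of oxidative phosphorylation, some of which the mitochondrial ribosome's products assemble with, were measured on the same arrays. Of 64 cytosolic ribosomal protein genes 4 fell and 1 rose at the male fall, with a median of -0.12, and of 75 oxidative phosphorylation genes 22 fell and 1 rose, with a median of -0.54, beside 15 and 1 of the 71 members with a median of -0.37. After birth 5 cytosolic genes rose and 6 fell, with a median of -0.16, and 18 oxidative phosphorylation genes rose and 4 fell, with a median of 0.40. In late females 7 cytosolic genes were higher and 5 lower than in males, and 25 oxidative phosphorylation genes were higher and 5 lower. Of all genes, 10.4% fell and 12% rose at the male fall, and 18.4% rose and 18.6% fell after birth. In late females 20% of all genes were higher and 22.5% lower. The difference between these lists and the members was not tested.

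**Figure D4:**
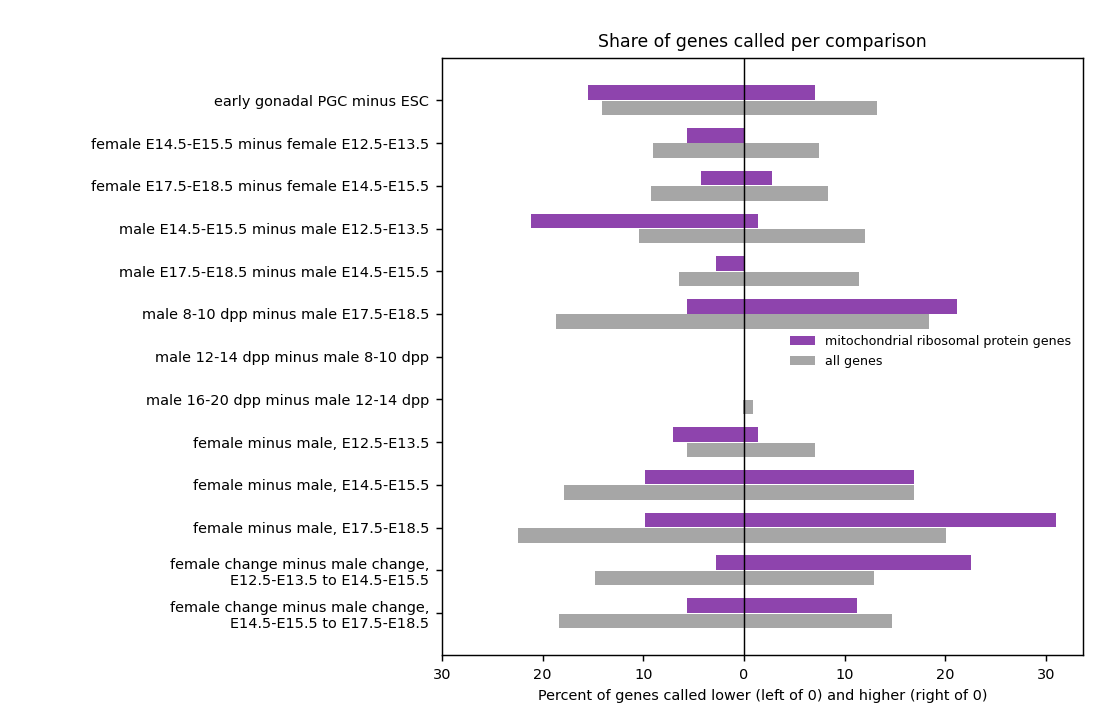
Share of the 71 members (purple) and of all 10935 genes (grey) called lower (left of 0) and higher (right of 0) in each comparison, in percent. The members exceed all genes on the lower side at the male fall (21.1% against 10.4%) and on the higher side in females at E17.5 and E18.5 (31% against 20%), and neither bar is visible for the members in the 2 juvenile comparisons.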

How the data were processed

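RNA of sorted PGC and of ESC was hybridized to single-colour MouseRef-8 version 2 beadchips, 44 arrays in 23 groups taken from the sample titles, ages and sexes. The deposited intensity table holds the mean bead intensity of 25697 probes per array, exported with BeadStudio 3.2 per the submitters' processing notes and not scaled between arrays. The deposited table also gives a detection p-value for each intensity. A table of the authors' log2 values, which the notes link to RMA and lumi, served as an alternative; its columns share one distribution (sorted values within 0.00137) with a median of 3.2.

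Background was estimated for the deposited intensities through their detection p-values, and arrays were quantile-normalized with an offset of 16 and put on the log2 scale (neqc, limma 3.58.1, R 4.3.3). Probes detected at p under 0.01 on at least 2 arrays were kept (16086), and the brightest per gene gave 10935 genes. Symbols in the platform annotation were updated through RefSeq (GRCm38.p6). A linear model of 23 group means was fitted to all arrays in limma (21 residual and 3.63 prior degrees of freedom), with ESC and 14 dpp, of 1 array each, assumed to vary like the rest. Two-sided moderated contrasts were adjusted by Benjamini-Hochberg over all genes, and genes were called at an adjusted p under 0.05 and at least 2-fold. A gene detected on no array of a group was given a bound against the lowest detected signal per array. The model fit and the calls were tested for the male fall alone, on simulated log2 values with 200 changed genes. Background correction, normalization and the probe filters were not part of that test.

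Members named are, per comparison, up to 5 called rises and 5 called falls with the largest change and no overlap of arrays, or the 3 smallest p-values where none was called. The 4 widest and 4 narrowest ranges, the Mrps18 family and up to 4 called genes per related list were added. Mrpl45 and Mrpl34 where arrays overlapped, the further members that fell in males or changed in both male steps, and Mrpl53 after birth were named after their values were seen. Members, gene lists and marker lists were chosen with earlier results of these data known. Alternatives were no background correction, cyclic loess, median scaling, the authors' values, other detection filters, each probe on its own, calls by adjusted p alone, a trended robust prior, the compared arrays alone, a replicate block, groups left out and arrays left out. Replicate numbers did not pair the arrays.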

Additional observations from a re-analysis of the deposited data

Results flagged for a closer look

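In 16 cases the change of a member between stage pairs differed between the sexes by the interaction test in limma and was among the largest in its direction. Values are the female change minus the male change on the log2 scale. From E12.5 and E13.5 to E14.5 and E15.5 the positive values were 2.64 for Mrpl53, 2.37 for Mrps34, 1.51 for Mrpl43 (adjusted p = 1.05e-07), 1.49 for Mrpl49 (adjusted p = 2.93e-06) and 1.43 for Mrpl54 (adjusted p = 7.21e-07). The negative values were -2.31 for Mrpl45 and -1.60 for Mrpl23, which were among the 7 members called lower in females than in males at E14.5 and E15.5.

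From E14.5 and E15.5 to E17.5 and E18.5 the value was 2.35 for Mrpl34, 2.16 for Mrpl45 (adjusted p = 0.000665), 1.85 for Mrps2 (adjusted p = 0.000158), 1.66 for Mrpl57 (adjusted p = 0.00389) and 1.55 for Mrpl12 (adjusted p = 1.43e-08). Mrpl57 was detected on 7 of the 8 female and 2 of the 8 male arrays in this comparison. For Mrps2 the size of the value depends in part on a single low array, replicate 2 of E15.5 females. The value was -1.20 for Mrpl46 (adjusted p = 6.14e-07), -1.20 for Mrpl20 (adjusted p = 0.000767), -1.18 for Mrpl48 (adjusted p = 8.18e-07) and -1.10 for Mrpl18 (adjusted p = 5.38e-05). The second probe of Mrpl18 did not repeat this: it changed by 0.15 in females and -0.02 in males, and neither change passed. Mrpl45 was named in both steps, with opposite signs. Both steps use the same E14.5 and E15.5 arrays, which enter them with opposite signs, so these values are not independent. No group had enough arrays to look for a single outlying array.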

How the results depend on the processing

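Counts of members called are given beside the reported count. Without background correction they were 1 (reported 4) and 1 (reported 5) for the female steps, 8 (reported 16), 0 (reported 2) and 9 (reported 19) for the male steps to E14.5 and E15.5, to E17.5 and E18.5 and to 8 and 10 dpp, 1 (reported 6) and 16 (reported 29) for the sexes at the first and last days, and 9 (reported 18) and 4 (reported 12) for the interactions. Cyclic loess gave 0 for males at E17.5 and E18.5. Median scaling gave 61 against ESC (reported 16), 5 for males at E17.5 and E18.5, 63 at 8 and 10 dpp and 11 for the earlier interaction. It turned Mrpl3 (-0.29), Mrpl54 (-0.49) and Mrpl38 (-0.56) against ESC and Mrps9 (0.67) after birth. The authors' log2 values gave 7 and 9 for the female steps and 7 for males at E17.5 and E18.5. With no fold threshold the counts were 38 against ESC, 34 and 41 for the female steps, 52, 32 and 59 for the male steps, 2 at 16 to 20 dpp, 27, 50 and 52 for the sexes by day, and 46 and 40 for the interactions. Each probe on its own gave 30 calls for the sexes at E14.5 and E15.5 (reported 19), with more probes tested. Leaving out the E15.5 males gave 6 for the male fall, where fewer arrays remained. The cause of the other changes was not tested.

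Leaving out single arrays gave 67 to 71 for any difference, 16 to 17 against ESC, 3 to 5 and 3 to 6 for the female steps, 10 to 17, 1 to 7 and 16 to 23 for the male steps, 0 in both juvenile comparisons, 4 to 8, 19 to 23 and 27 to 30 for the sexes, and 15 to 19 and 12 to 14 for the interactions. For the later female step 3 came without replicate 2 of E15.5 females. For the male steps 10 came without replicate 2 of E14.5, and 1 and 7 without replicate 1 of E14.5 and of E17.5. Replicate numbers did not pair the arrays (210 pairs, correlations of deviations -0.124 to 0.335, median 0.015), and the fit with the replicate block gave 17 against ESC, 5 and 5 for the female steps, 16, 2 and 19 for the male steps, 6, 19 and 29 for the sexes and 18 and 12 for the interactions. The remaining settings kept each count within 1.5 times of the reported one. Of the single member results 31 of 38 kept their side of the threshold for males at E17.5 and E18.5, 217 of 240 for the male fall and 262 of 266 for the sexes at E17.5 and E18.5. The beadchip as a block was not run because chips are not named in the headers. Members near background, such as Mrps2, Mrpl39, Mrpl51 and Mrpl57, have bounds or detection on part of the arrays only, and 1 or 2 arrays per group limit the precision.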
